A study of Mus musculus with 6 samples.

Results

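Ctla2a, its close copy Ctla2b and 8 cathepsin genes (Ctsb, Ctsd, Ctsl, Ctsh, Ctsk, Ctss, Ctsz and Ctsc) were followed in whole mouse uterus. They were matched by gene symbol, and all 10 were found among the 20637 genes listed in each library and among the 12640 that were tested. The 10 genes were chosen with the difference between the groups compared here already known, so their differences are given as a description and without a test. The groups were 3 libraries from floxed control females (Nat10 f/f) and 3 from Nat10-deleted females (Nat10 d/d), all taken on postnatal day 21, around weaning. The labels give no strain, no Cre driver, no deleted exons and no statement of which uterine cells lost Nat10. They number the libraries as replicates without saying that each came from its own mouse, so the spread between libraries may be in part technical.

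Cathepsins are proteases that work mainly in the acidic lysosome, where they break down proteins brought in from outside the cell or from its own cytoplasm. Most belong to the papain-like cysteine proteases, which are made as inactive precursors whose propeptide blocks the active site until it is cut off, while cathepsin D is an aspartic protease. Ctla2a and Ctla2b, first found in activated T cells and mast cells, encode small proteins that resemble such a propeptide without the protease behind it, and Ctla2a inhibits cathepsin L-type enzymes. In the mouse uterus, cathepsins and Ctla2 proteins are known mainly from the decidua and placenta of pregnancy.

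Ctla2a lay on chromosome 13 from 60934155 to 60936625 and Ctla2b from 60895350 to 60897447, both on the minus strand, 36.7 kb apart (GENCODE M21 annotation of GRCm38, the build named mm10 in the submitters' processing notes). Ctsl lay 3.42 Mb further along the same chromosome, from 64359337 to 64370890. The coding sequences of Ctla2a (414 bases) and Ctla2b (342 bases, stop codons included) were identical at 329 of 342 aligned bases, or 96.2%. The stretch of 150 aligned coding bases with the most differences is shown to let the likeness of the pair be seen; capitals mark the 8 bases that differ, and positions 177 to 326 of the Ctla2a coding sequence are set against 105 to 254 of Ctla2b.
Ctla2a: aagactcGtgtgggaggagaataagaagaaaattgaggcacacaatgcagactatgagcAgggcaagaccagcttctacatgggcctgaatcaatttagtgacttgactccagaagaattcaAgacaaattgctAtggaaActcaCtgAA
Ctla2b: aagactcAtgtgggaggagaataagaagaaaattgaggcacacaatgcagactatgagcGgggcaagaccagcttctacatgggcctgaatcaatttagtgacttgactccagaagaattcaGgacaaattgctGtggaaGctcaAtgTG

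Among 50-base windows of the Ctla2a transcript, 11.9% also occurred in a transcript of another gene listed in the files, and the figure was 11.9% for Ctla2b. No 100-base window of either transcript did so. The 94 such windows of Ctla2b matched Ctla2a alone among listed genes. The 158 of Ctla2a matched many listed genes besides Ctla2b, so the equal shares are not the same overlap. Counting every annotated gene, the read-through genes included, the shares were 30.4% and 86.1% at 50 bases and 19.5% and 76.9% at 100 bases. Read length is not given in the sources used here, so how far the authors' quantification could separate the pair is uncertain. Both genes also share exons with annotated read-through genes, of which Gm49391 spans both, and these are not listed in the files. Ctsd shares exons in the same way with the unlisted Gm49369 (36.6% of 50-base and 35.01% of 100-base windows), and Ctsl with the unlisted Gm47123, on the opposite strand, and Gm49230 (28.1% and 25.4% of windows shared with any annotated gene). Shared exons with listed neighbours on the opposite strand were found for Ctsb (Fdft1) and Ctsz (Nelfcd), and strand use in counting is not stated. None of the 50-base windows of Ctsh, Ctsk, Ctss, Ctsz or Ctsc occurred in another gene's transcript.

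Tpbpb lies between Ctla2b and Ctla2a on the chromosome. The sequences before the start sites of the pair were compared because both genes had higher values in every deleted library than in any control. Any part of these sequences in that difference was not tested. RefSeq starts on GRCm38.p6 were used, and 8 of the 10 genes had an entry. Ctla2a had another start, with its window at chr13:60936517-60936816, which was not aligned. The 250 bases before the start used for each gene aligned over 228 bases, of which 209 (91.7%) were identical. Capitals mark bases that differ or were left unaligned. Ctla2a is shown at chr13:60936626-60936875 and Ctla2b at chr13:60897448-60897697, both read along the minus strand.
Ctla2a upstream: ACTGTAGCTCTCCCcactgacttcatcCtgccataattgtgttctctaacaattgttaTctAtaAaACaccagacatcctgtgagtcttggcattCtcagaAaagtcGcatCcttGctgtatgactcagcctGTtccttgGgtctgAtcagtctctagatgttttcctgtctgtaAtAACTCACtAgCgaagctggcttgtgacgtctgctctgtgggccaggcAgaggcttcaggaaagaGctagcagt
Ctla2b upstream: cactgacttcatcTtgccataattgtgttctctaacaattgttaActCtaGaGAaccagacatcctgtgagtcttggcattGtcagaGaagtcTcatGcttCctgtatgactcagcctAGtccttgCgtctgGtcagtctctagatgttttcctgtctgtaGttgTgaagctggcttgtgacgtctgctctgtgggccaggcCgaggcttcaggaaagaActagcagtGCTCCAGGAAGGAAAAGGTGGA

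The letters CACGTG, a palindrome at the core of the element bound by TFEB, the regulator of lysosomal genes, occurred in the windows of 250 bases before to 50 after the start of Ctsd and Ctsl. It did not occur in those of Ctla2a, Ctla2b, Ctsc, Ctsk, Ctss or Ctsz. Of all 32851 windows of this length, 7.15% held it.

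The libraries differed little in estimated depth. From the ratios of the lowest values, the deepest was 1.25 times as deep as the shallowest, and absolute depth is unknown. Between 15431 and 15680 genes were above 0 per library. Nat10, the targeted RNA acetyltransferase gene, had FPKM values (fragments scaled by gene length and by the number mapped) of 13.2, 16.4 and 9.95 in controls and 5.57, 5.23 and 5.53 in deleted uteri. Its log2 change was -1.11 (exact permutation test, two-sided p = 0.1, the smallest that 3 libraries against 3 allow). Nat10-deleted replicate 2 stood apart from the others in proliferation genes: the summed FPKM of 10 such genes, Mki67 and Top2a among them, was 179 in it, against 16.5 and 9.15 in the other deleted libraries and 20 to 79.2 in controls. All 10 targets of the stress regulator p53 were also highest there, with a summed FPKM of 610 against 278 and 294 in the other deleted libraries and 179 to 200.5 in controls; 8 of the 10 had higher values in every deleted library than in any control, as did 6.12% of all genes tested. Control replicate 1 stood apart in red blood cell genes, with a summed FPKM of 5581 over 6 genes against 709 to 2629 in the other libraries, and in fat cell genes, with 58.6 against 0.979 to 11.1. It also had the lowest value of all 6 libraries for Ctla2b, Ctsb, Ctss and Ctsc; the part of these cell types in those values was not tested.

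In control uteri the cathepsin genes covered a wide range of levels, led by Ctsd. FPKM is scaled by gene length, but levels of different genes also depend on the shared exons described above. They depend as well on the annotation and strand setting, which are not given, so the order and ratios of genes are approximate. Mean FPKM was 674 ± 92 for Ctsd, 330 ± 31.5 for Ctsb and 155 ± 3.87 for Ctsl (SD, n = 3). Ctsz followed at 103 ± 5.34 and Ctsh at 42.6 ± 5.01 (SD, n = 3). Ctsd and Ctsb were thus more abundant than 99.1% and 98.6% of the genes tested. Ctla2a (26.9 ± 3.58) and Ctsk (22.8 ± 4.58) came next and overlapped in range, then Ctss (14.1 ± 3.74) and Ctsc (12 ± 1.86), which also overlapped (SD, n = 3). Ctla2b was lowest at 5.64 ± 1.02 (SD, n = 3). All other neighbours in this order had ranges that did not overlap.

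In deleted uteri the order was the same but for Ctla2a, which stood above Ctsh by mean, with overlapping ranges. Ctss and Ctsk overlapped there too. Ctsd made up 49.7% ± 4.47 of the summed FPKM of the 8 cathepsins in controls and 54.2% ± 7.48 of it in the deleted group (SD, n = 3), with overlap. The 7 cysteine cathepsins together summed to 680 ± 47.5 in the control group and 691 ± 22.9 in the deleted group on average (SD, n = 3), with overlapping ranges.

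**Figure D1:**
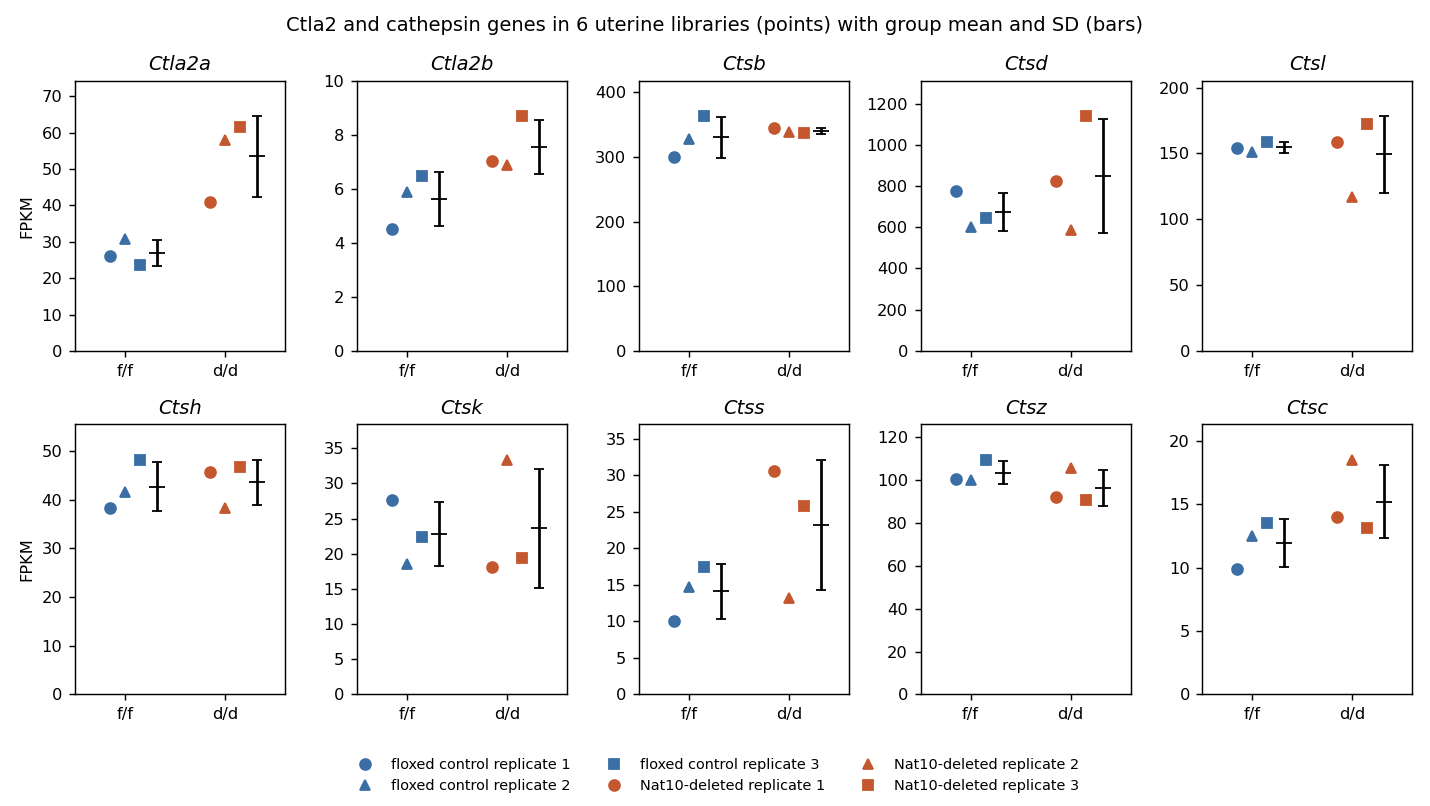
FPKM of the 10 genes in each library (vertical axes start at 0 and differ between genes), with floxed controls (f/f) in blue and Nat10-deleted uteri (d/d) in orange; horizontal marks and bars give the group mean and SD. Ctla2a and Ctla2b are the only panels in which every deleted library lies above every control.

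Ctla2a had the largest difference of the 10 genes over all 6 libraries. Its FPKM was 26.1, 30.8 and 23.7 in control replicates 1, 2 and 3 and 40.9, 58 and 61.6 in deleted uteri, in the same order of replicates. Each of the 3 deleted libraries lay above the highest control, replicate 1 being the lowest of them. The mean was 53.5 ± 11 in deleted uteri (SD, n = 3), or 199% of the control mean, a log2 change of 0.95 (SE 0.18) on the scale of log2(FPKM + 1) used for all changes here. Leaving out each library in turn gave log2 changes of 0.84 to 1.13. As the groups did not overlap, leaving out 1 library could not have reversed the sign, so this range describes size only. Without Nat10-deleted replicate 2 the change was 0.89, below the 0.98 of Ctss.

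Ctla2b, the shorter and less abundant copy, had FPKM values of 4.52, 5.89 and 6.5 in controls and 7.04, 6.9 and 8.7 in deleted uteri. The groups did not overlap here either, but the gap was narrow. The log2 change was 0.37 (SE 0.16), and 0.24 without control replicate 1, which had the lowest value. Groups did not overlap for 2 of the 10 genes, where 10.7% of the 12640 genes tested did the same in either direction and 6.12% with higher values in deleted uteri. Because the genes were chosen on this comparison, nothing is read from that count.

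The Ctla2a to Ctla2b ratio was 5.77, 5.23 and 3.65 in controls and 5.81, 8.41 and 7.08 in deleted uteri. The groups were separated by a small margin, with Nat10-deleted replicate 1 next to control replicate 1. Per 100 FPKM of Ctsl, Ctla2a stood at 16.9, 20.4 and 15 in controls and at 25.8, 49.8 and 35.8 in deleted uteri. The highest of these, in Nat10-deleted replicate 2, combined a high Ctla2a value with the lowest Ctsl value of the 6 libraries. Both Ctla2 genes together came to 4.8 ± 0.686 FPKM per 100 FPKM of the 7 cysteine cathepsins in the control group and 8.85 ± 1.77 in the deleted group (SD, n = 3), without overlap.

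**Figure D2:**
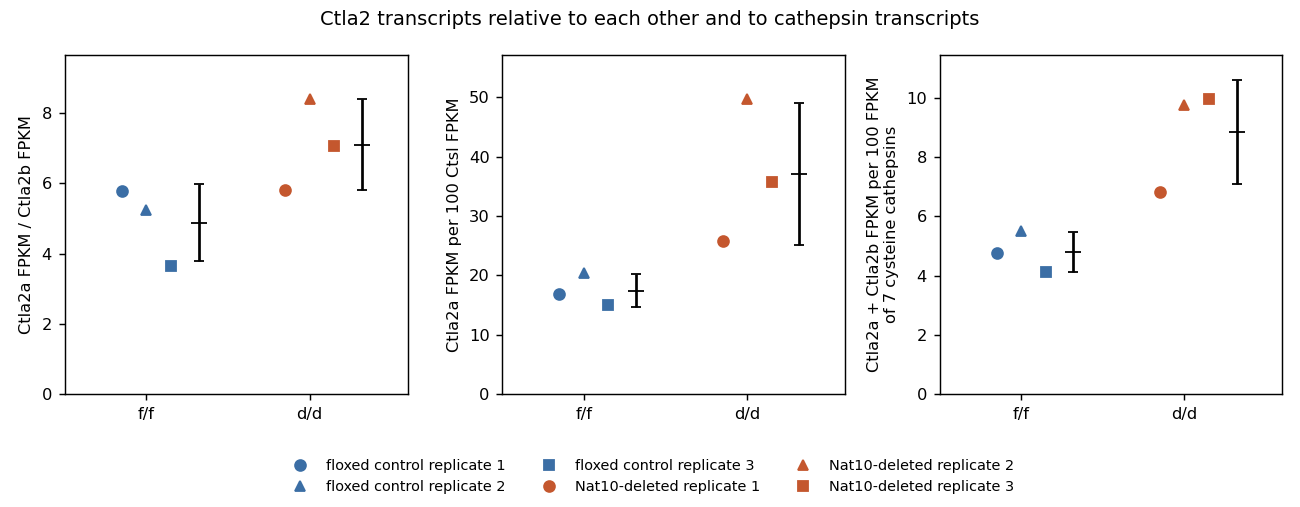
Ratios of FPKM values in each library, with group mean and SD: Ctla2a over Ctla2b (left), Ctla2a per 100 Ctsl (middle) and Ctla2a plus Ctla2b per 100 of the 7 cysteine cathepsins (right). In all 3 panels the deleted libraries lie above the controls, narrowly so for the left one (5.81 against 5.77).

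Markers of lymphocytes, the cells in which Ctla2 transcripts were first described, were low in all libraries. Over 11 lymphocyte markers the summed FPKM was 7.94 to 12.4 in controls and 12.2 to 15.5 in deleted uteri. Of these markers, 5 were tested, of which Cd79b and Cd3g had higher values in every deleted library than in any control, as did 6.12% of all genes tested; Cd3g stood at 1.4, 2.11 and 1.84 in controls and at 2.7, 2.16 and 2.9 in deleted uteri. Lck, Nkg7 and Ncr1, also tested, had overlapping groups, with log2 changes of 0.30, 0.14 and -0.05. Mast cell protease genes were also low: Cma1, Mcpt4 and Tpsb2 did not exceed 4.91 FPKM in any library. Their groups overlapped, with log2 changes of -0.13, -0.49 and -0.48. Endothelial markers (12 genes) had a median change of -0.22 on the log2 scale (11 lower by log2 change, 3 of them without overlap, as for 4.6% of all genes tested) and overlapping summed FPKM of 445 to 502 in controls and 406 to 486 in deleted uteri. Kdr, the main VEGF receptor of blood vessels, was 27.4, 27.4 and 28.1 in controls and 18.5, 19.8 and 20.6 in deleted uteri. Epithelial markers (8 genes) had a median change of 0.25 on that scale (7 higher, 3 of them without overlap, as for 6.12% of all genes tested) and overlapping sums of 635 to 755 and 739 to 830. Over all 12640 genes tested, 7154 were higher and 5486 lower by log2 change. The part of these marker levels in the Ctla2a difference was not tested, and in whole tissue more cells of a type and more RNA per cell cannot be told apart.

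Ctsl, the protease whose propeptide Ctla2a resembles, had overlapping groups. It was 154, 151 and 159 in controls, the tightest of the 10 genes with a coefficient of variation of 2.5%, and 159, 117 and 172 in deleted uteri. Nat10-deleted replicate 2 was below all controls and replicates 1 and 3 above them, replicate 1 by less than the rounding (158.73 against 158.66). The log2 change was -0.07 (SE 0.16), and 0.10, -0.12 and -0.18 without Nat10-deleted replicates 2, 1 and 3 respectively.

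Ctsb, a cysteine protease that also trims dipeptides from protein ends, was 299.97, 328 and 363 in controls and 344, 339 and 337 in deleted uteri. All deleted values lay inside the control range and within a narrow band, with a coefficient of variation of 1.21%. Its log2 change was 0.05 (SE 0.11), and -0.04 after quantile normalization. Ctsh, an aminopeptidase, was 38.3, 41.5 and 48.1 in controls and 45.8, 38.2 and 46.7 in deleted uteri. Its groups overlapped almost fully, with a log2 change of 0.03 (SE 0.13) that was -0.01 after quantile normalization or upper-quartile scaling. Ctsz, a carboxypeptidase also called cathepsin X, was 101, 100.2 and 110 in controls and 92.3, 106 and 90.8 in deleted uteri. Its log2 change was -0.10 (SE 0.11), -0.17 without Nat10-deleted replicate 2 and -0.06 without either control replicate 3 or Nat10-deleted replicate 3.

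Ctsd, the aspartic protease, was 777, 601 and 645 in controls and 823, 585 and 1138 in deleted uteri. Nat10-deleted replicates 1 and 3 were above every control and replicate 2 below every control. The log2 change of 0.29 (SE 0.24) therefore moved with single libraries, to 0.53 without replicate 2 and 0.05 without replicate 3. Ctsd and Ctsl shared this order: both were lowest in Nat10-deleted replicate 2 and highest in replicate 3.

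Ctsk, a collagen-degrading cathepsin best known from osteoclasts, was placed differently. It was 27.6, 18.5 and 22.3 in controls and 18.1, 33.4 and 19.4 in deleted uteri, highest of all in Nat10-deleted replicate 2. The log2 change was 0.01 (SE 0.25) and had no stable sign. It was -0.25 without that library and -0.12 without control replicate 2, but 0.17, 0.12 and 0.15 without Nat10-deleted replicate 1, Nat10-deleted replicate 3 and control replicate 1, and -0.03 after quantile normalization. Of 10 stromal markers, 5 were also highest of all in this library (Col1a1, Col1a2, Col3a1, Lum and Vim) and 3 were lowest of all there (Dcn, Pdgfra and Hoxa11). Col1a1 was 765, 677 and 750 in controls and 394, 984 and 361 in deleted uteri, while Dcn, a collagen-binding proteoglycan, was 1066, 1033 and 1115 against 1160, 646 and 1197. Summed FPKM of the stromal markers ranged from 4280 to 4961 among controls and from 3375 to 5044 among deleted uteri. All 10 markers had lower mean log2 values in deleted uteri, as did 5486 of all 12640 genes tested. The part of stromal RNA in the Ctsk values was not tested.

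**Figure D3:**
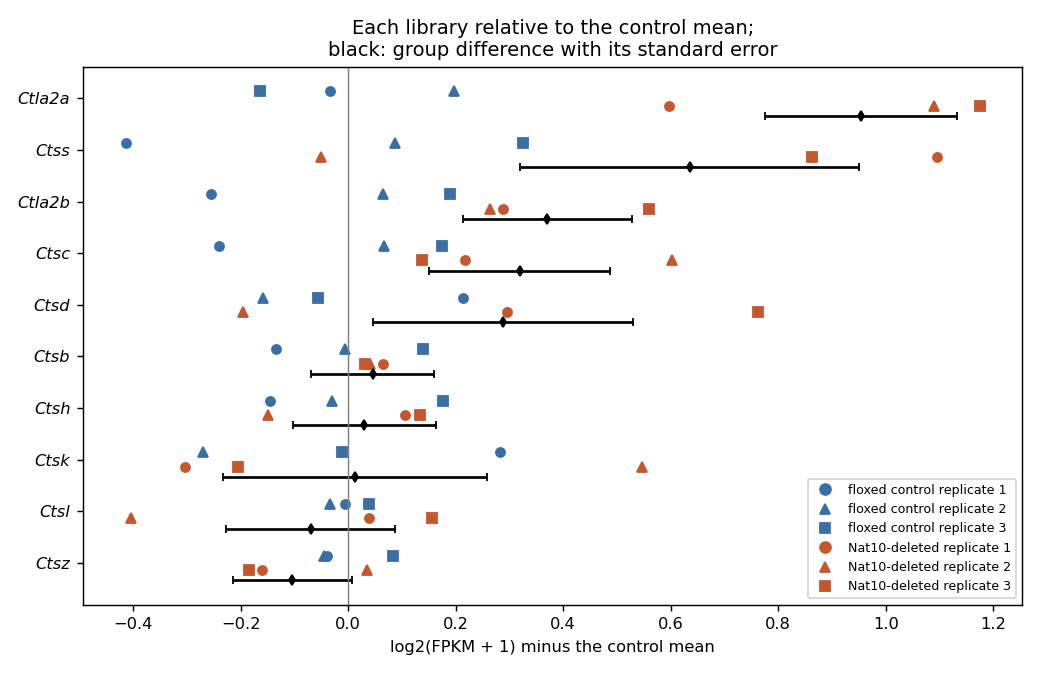
Each library's log2(FPKM + 1) minus the control mean for the 10 genes, ordered by the group difference, with that difference and its standard error in black. Nat10-deleted replicate 2 (orange triangles) lies at the low end of the deleted libraries for Ctss, Ctla2b, Ctsd, Ctsh and Ctsl and at the high end for Ctsc, Ctsk and Ctsz.

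Ctss, which trims the invariant chain for antigen presentation by MHC class II, had the second largest difference over all 6 libraries and the widest spread. It was 10.1, 14.7 and 17.5 in controls and 30.5, 13.2 and 25.8 in deleted uteri. Nat10-deleted replicates 1 and 3 were above every control while replicate 2 lay among them. The log2 change of 0.64 (SE 0.31) was 0.98 without Nat10-deleted replicate 2, 0.43 without control replicate 1 and 0.41 without Nat10-deleted replicate 1.

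The MHC class II genes also had their lowest deleted values in Nat10-deleted replicate 2. Cd74, the invariant chain itself, was 85.1, 108 and 152 in controls and 188, 75.9 and 191 in deleted uteri. H2-Aa, a class II chain, was 40.9, 57.5 and 62.6 in controls and 119, 32.7 and 104 in deleted uteri. All 7 class II genes had higher mean log2 values in deleted uteri, as did 7154 of all 12640 genes tested. Their median log2 change was 0.32, and 0.76 without Nat10-deleted replicate 2. It was 0.13, 0.11 and 0.13 without control replicate 1, Nat10-deleted replicate 1 and Nat10-deleted replicate 3. All 7 had their lowest deleted value in replicate 2, 5 of them the lowest of all 6 libraries, and none had separated groups. The share of all genes tested with their lowest deleted value there was not counted. No link to Ctss, or between Ctsd, Ctsl, Ctso and Cst3, is read from that order. Macrophage markers had overlapping groups. Their summed FPKM over 14 genes was 231 to 320 in controls and 238 to 308 in deleted uteri, with 6 higher and 8 lower (median log2 change -0.03), and C1qa, the most abundant complement gene of the list, was 26.8, 36.6 and 46 in controls and 50.7, 27.7 and 39.3 in deleted uteri.

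**Figure D4:**
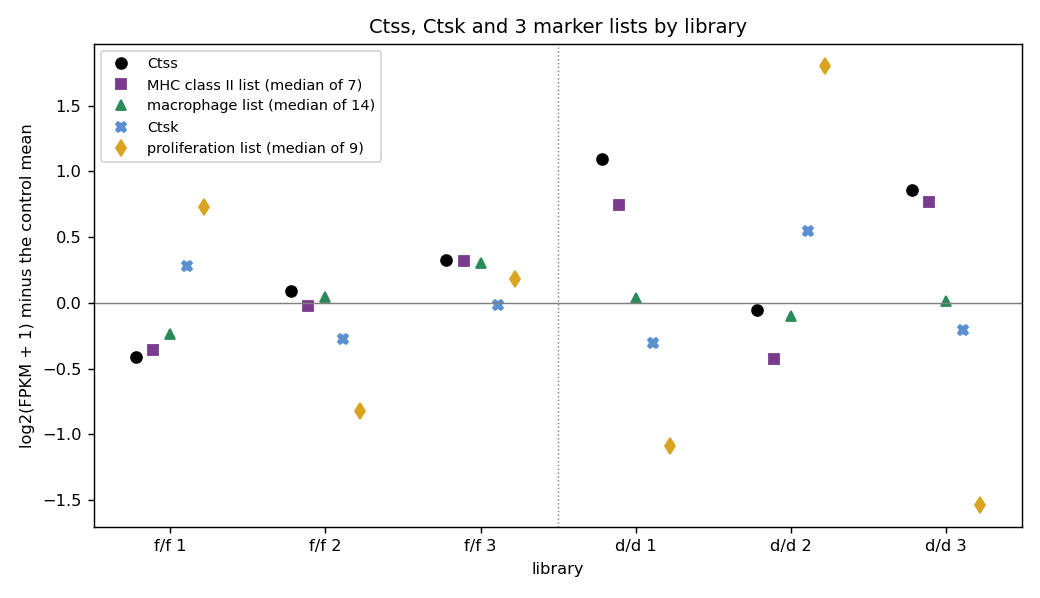
Ctss, Ctsk and the medians of 3 gene lists in each library, as log2(FPKM + 1) minus the control mean. Ctss and the MHC class II list are high in Nat10-deleted replicates 1 and 3 and lower in replicate 2 (-0.05 and -0.43). The proliferation list (1.80) and Ctsk (0.55) peak in replicate 2, while the macrophage list stays between -0.24 and 0.31.

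Ctsc, a dipeptidyl peptidase that activates the granule serine proteases of leukocytes, was 9.89, 12.5 and 13.5 in controls and 14, 18.5 and 13.1 in deleted uteri. Only Nat10-deleted replicate 3 fell inside the control range. The log2 change was 0.32 (SE 0.17), 0.18 without Nat10-deleted replicate 2 and 0.20 without control replicate 1. Of 9 granule protease genes, 5 were tested and 2 had higher and 3 lower mean log2 values in deleted uteri. Their median log2 change of -0.13 turned with single libraries, from -0.37 without control replicate 1 and -0.31 without Nat10-deleted replicate 2 to 0.03 without control replicate 3. Gzma, encoding granzyme A, stood highest among them in change at 0.90 (SE 0.37; limma adjusted p = 0.923) but reached only 0.39, 1.31 and 2.17 FPKM in controls and 4.8, 3.18 and 1.75 in deleted uteri. Ctsg, Elane and Prtn3 stayed below 1 FPKM in all 6 libraries.

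The deleted libraries spread more widely than the controls for 7 of the 10 genes. The ratio of the standard deviations on the log2 scale had a median of 1.63 over the 10 genes and 1.73 over all genes tested. It was largest for Ctsl (8.24), owing to its tight controls, and smallest for Ctsb (0.127).

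Likeness between genes was measured by Pearson correlation of log2(FPKM + 1) over the 6 libraries, which share the group difference, and is a description only. The 5 genes most like Ctla2a out of 12639 were Dusp8 (r = 0.997), Pthlh (0.987), Dgcr8 (0.986), Zfp74 (0.981) and Znhit3 (0.973), and 87 genes passed an r of 0.9. With each group's mean removed, r for these 5 genes was 0.914 to 0.982. Pthlh, which encodes parathyroid hormone-related protein, was 1.92, 1.88 and 1.45 in controls and 2.68, 3.74 and 3.77 in deleted uteri. Dgcr8, a microRNA processing factor, was 17, 17.7 and 16.5 in controls and 18.5, 19.1 and 19.3 in deleted uteri. Among the 10 genes, the closest partner of Ctss was Ctsh (r = 0.794), that of Ctsd was Ctsl (0.694) and that of Ctla2b was Ctss (0.786).

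The wider protease and lysosome pathway was taken from 11 lists drawn up by function, with earlier results of these data known. Higher and lower counts go by the log2 change, that is, by the mean of log2(FPKM + 1). No gene in the whole table passed an adjusted p of 0.05 in limma (0% of 12640), the listed genes and the 10 genes above included, and 630 (4.98%) had an unadjusted p under 0.05. Of 104 listed pathway genes that were tested, 60 had higher and 44 lower mean log2 values in deleted uteri, with a median log2 change of 0.03, as over all genes tested (0.03). Over all 12640 genes tested, 7154 were higher and 5486 lower, the split beside which the counts for single lists stand. At an unadjusted p under 0.05 there were 6, all higher, where 2.68% of all genes tested were on the higher and 2.3% on the lower side. Groups did not overlap for 8 on the higher and 2 on the lower side, where 6.12% and 4.6% of all genes tested did the same.

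Among the other cathepsins, 4 of 6 were tested and none had separated groups. Ctso was 17.4, 13.9 and 16.1 in controls and 29.8, 12.9 and 26.4 in deleted uteri (log2 change 0.44, SE 0.28). It was high in Nat10-deleted replicates 1 and 3 and lower in replicate 2, an order of deleted libraries also seen for Ctss. Ctsa, a serine carboxypeptidase that also stabilizes other lysosomal enzymes, was 68.6 ± 5.88 in controls and 62.8 ± 10.1 in deleted uteri, and Ctsw, a cathepsin of cytotoxic lymphocytes, was 1.33 ± 0.291 and 1.76 ± 0.345 (SD, n = 3). The placental cathepsins Ctsj, Ctsm, Ctsq, Ctsr, Cts3, Cts6, Cts7 and Cts8, which lie near Ctla2a on chromosome 13, were listed at 0 in all 6 libraries.

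Cystatins are the main general inhibitors of cysteine cathepsins, and 2 of 18 listed passed the low-value filter. Cst3, the secreted cystatin C, was 384, 405 and 425 in controls and 545, 375 and 520 in deleted uteri, far above both Ctla2 genes. Nat10-deleted replicates 1 and 3 were above every control and replicate 2 below, as for Ctsd. Cstb, the cytoplasmic stefin B, was 122, 114 and 87.3 in controls and 113, 151 and 110 in deleted uteri. The log2 changes were 0.23 (SE 0.16) for Cst3 and 0.21 (SE 0.18) for Cstb.

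The subunits of the V-ATPase, the proton pump that acidifies the lysosome and so sets the pH at which cathepsins work, included several with separated groups. Of 16 tested, 13 had higher mean log2 values, 6 had every deleted library above every control and none was separated the other way (6.12% and 4.6% of all genes). The median log2 change was 0.11, between 0.07 and 0.13 under the alternatives. Their summed FPKM was 883 to 918 in controls and 959 to 977 in deleted uteri. Atp6v1d was 44.3, 37.7 and 34.1 in controls and 59.4, 50 and 45.5 in deleted uteri (log2 change 0.41, SE 0.15; limma adjusted p = 0.923), followed by Atp6v1h (0.25) and Atp6v1g1 (0.24). At an unadjusted p under 0.05 there were 3 of the 16, and 0 to 5 under the alternatives.

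Of 32 lysosomal hydrolases other than proteases that were tested, 15 had higher and 17 lower mean log2 values, the median log2 change was 0.00, and none had separated groups or an unadjusted p under 0.05. Acp5, Gaa and Ppt1 had the smallest p, with log2 changes of -0.25, -0.30 and 0.14. Of 14 lysosomal membrane genes, 7 had higher and 7 lower mean log2 values. The smallest p among them belonged to Ostm1, a partner of the chloride transporter Clcn7, at 6.27 ± 0.468 against 8.47 ± 0.326 in the deleted group (SD, n = 3; log2 change 0.38; limma adjusted p = 0.923), without overlap, followed by Tmem192 (0.39) and Scarb2 (0.14).

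Of 14 genes that sort hydrolases to the lysosome, 8 had higher and 6 lower mean log2 values. Nagpa, which uncovers the mannose 6-phosphate tag on hydrolases, was lower without overlap, at 11.9 ± 0.581 and 9.97 ± 0.938 (SD, n = 3; log2 change -0.24). Lrp1, an endocytic receptor, had a log2 change of -0.40. Among 7 other lysosomal peptidases, 2 had higher and 5 lower mean log2 values. Lgmn, the legumain that processes cathepsin precursors, was 29.3 ± 4.94 and 33.6 ± 3.05 (SD, n = 3), while Dpp7 (log2 change -0.36) and Tpp1 (-0.20) had lower mean log2 values, Tpp1 without overlap.

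In the TFEB family, Tfeb itself had a lower mean, at 11.9, 10.6 and 9.76 in controls and 6.59, 8.53 and 10.3 in deleted uteri (log2 change -0.32, SE 0.17). Its groups overlapped through Nat10-deleted replicate 3. Mitf was 11.4 ± 1.23 and 13.8 ± 3.72, and Tfe3 was 13.1 ± 0.965 and 13.8 ± 0.59 (SD, n = 3).

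**Figure D5:**
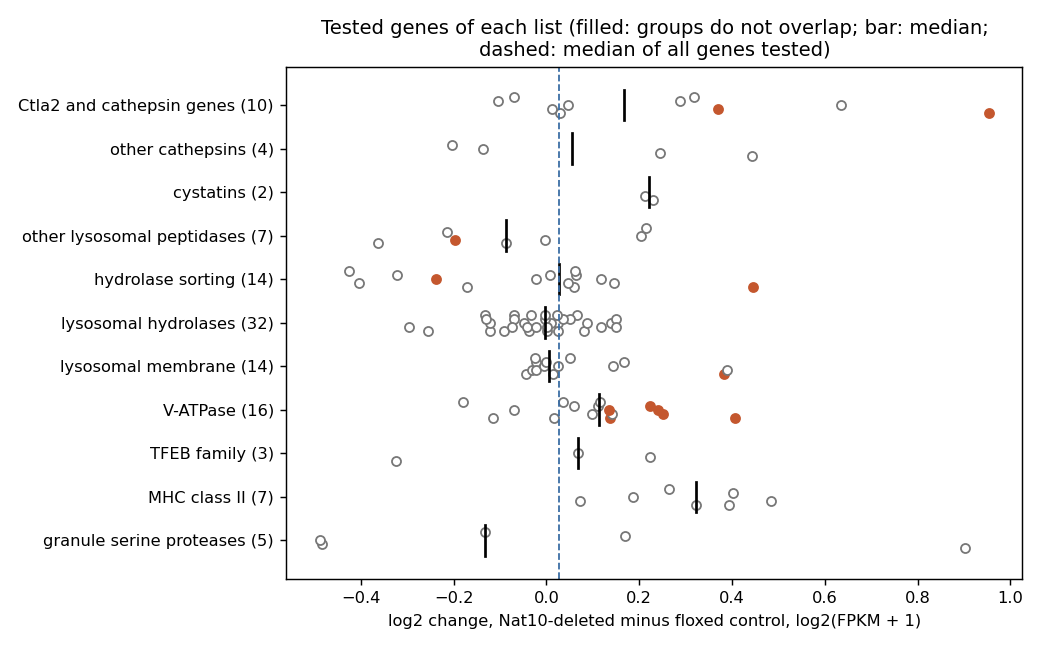
Log2 change of every tested gene in each list, on the log2(FPKM + 1) scale, with the number tested in brackets; filled points are genes whose groups do not overlap, black bars the list medians and the dashed line the median of all genes tested (0.03). Filled points number 6 in the V-ATPase row and 2 in the row of the 10 genes.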

How the data were processed

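RNA from whole uterus was sequenced from TruSeq libraries, per the labels' protocols. The submitters' processing notes name HISAT2 2.2.1, Cufflinks 2.2.1 and mm10. The deposited tables hold 1 FPKM value per gene; no header names the unit, which was taken from those tools and from totals that differ between libraries. Annotation, gene filter and strand setting are not given in the sources used here.

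Genes that reached an FPKM of 1 in 3 or more libraries (12640) entered the test as log2(FPKM + 1) with limma 3.58.1 in R 4.3.3 (mean-variance trend, group only, all 6 libraries, two-sided, Benjamini-Hochberg adjustment, threshold 0.05). The fit was tested on simulated data. Because depth is unknown, no counting intervals are given. Of 20637 identifiers, 20558 matched GENCODE M21. Coding and upstream sequences were aligned globally with Biopython 1.88. Protein sequences were not analysed here. The 10 genes and all lists were chosen with earlier results of these data known. Named genes are the 10, Nat10, up to 3 per pathway list with the smallest p, and the 5 most like Ctla2a; others (Cd74, Col1a1, C1qa, Kdr, markers and list members named for being low or at 0) were chosen after their values were seen. The fixed alternatives were pseudocount 0.1, low-value filters, 3 scalings, no trend, a replicate block and leaving out each library; the count test was not run because the files hold no counts. The result for 1 listed gene is not reported here.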

Additional observations from a re-analysis of the deposited data

How the results depend on the processing

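Leaving out 1 library at a time gave 0 to 12 genes past an adjusted p of 0.05 in limma, against 0 with all libraries, and the 12 came when Nat10-deleted replicate 2 was dropped. For unadjusted p under 0.05 the range was 352 to 1726 genes, against 630: 1726 without Nat10-deleted replicate 2, 1403 without replicate 3, 352 without replicate 1, and, for controls, 359 without the first and 353 without the third. The split of these genes depended on scaling: 339 higher and 291 lower as given, 259 and 414 with quantile-normalized values, 248 and 376 with centred medians, and 232 and 399 with scaled upper quartiles. The log2 change of Ctla2a stayed between 0.84 and 1.13 over all 14 alternatives and that of Ctla2b between 0.24 and 0.46. Those of Ctss, Ctsd and Ctsc also kept their sign, as did Ctsz, while Ctsb, Ctsl, Ctsh and Ctsk changed sign under 2, 1, 5 and 5 of them. Same-numbered control and deleted libraries did not deviate together (correlations of -0.341, -0.029 and 0.1 across genes), so the number was not taken as a pairing; with it as a replicate block, 0 genes passed an adjusted p of 0.05 and 726 an unadjusted one. By their construction the block, the low-value filters and the fit without a trend, 4 of the 14, cannot move a gene's log2 change, so the Ctla2a and Nat10 values of 0.95 and -1.11 under them say nothing about stability. Absolute depth is unknown, which limits what can be said of genes near 0, such as the lymphocyte and granule protease genes.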
